A study of Mus musculus with 18 samples.

Results

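The organic ion and ABC transporters measured here are the genes of 3 groups of membrane transporters: the Slc22a family of organic anion, cation and carnitine carriers, the Slco family of organic anion transporting polypeptides, and the A, B, C and G families of ATP-binding cassette (ABC) transporters. A gene was counted as a member when a row of all 3 deposited tables carried its name alone, and where several rows did, the row with the highest mean level was taken. By this rule 53 of the 18444 genes with a row of their own name were members, after 1 Slc22a gene had been left out. Of these 53, 49 reached a level of 0.5 FPKM, a density of sequenced fragments relative to exon length and to the mapped fragments of the library, in at least 1 group, as did 16918 of all genes, and the counts below are over those. The other 4, Slc22a3, Abcc6, Slc22a2 and Abcg8, stayed below that level in every group. Slco5a1 lay just inside the limit, at 0.517 and 0.546 FPKM after saline and CFA in LacZ mice and at 0.344 to 0.420 FPKM in the other groups. Slc22a2 lay just outside it, at 0.311 and 0.415 FPKM in LacZ mice and at 0.225 to 0.329 FPKM in the others. A further 29 of the 82 annotated genes of these families had no row under a name of their own, among them Slco1a1, Slco1b2, Abcb11 and Abcc2, and were not analysed here.

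The tissue was dorsal spinal cord of the lumbar segments L3-5 from mice aged 3 months, labelled C57BL/6 and given as C57BL/6N in the study's methods. All 18 mice had received a recombinant adeno-associated virus (rAAV) by injection into the dorsal horn, so the controls carried a virus too: rAAV-LacZ, which expresses the bacterial enzyme β-galactosidase, rAAV-HDAC4 wt, which expresses the wild-type histone deacetylase HDAC4, or rAAV-HDAC4 3SA, which expresses a mutant that stays in the nucleus. An injection of saline or of Complete Freund's Adjuvant (CFA), which inflames the paw, was given into the hindpaw 24 h before the tissue was taken, which made 6 groups of 3 mice each. The dissected tissue was sequenced whole, so that transduced and other cells cannot be told apart, and the promoter of the transgenes was not given in the sources used here.

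Each table holds 1 level per group, which the authors' software had estimated over the 3 mice, and no value per mouse. No error or SD could therefore be given for any value below, no test was run, and the authors' own test columns were not used, so that no difference below is set against the spread between mice. A change after CFA is the log2 ratio of the CFA to the saline value of a vector with 0.1 FPKM added to both, which understates the change of genes at low levels, and 0.5 in either direction, or 1.41-fold, was used as a limit of size. The tables give no depth per library. The 3 vectors were normalised in separate runs, so that levels set side by side across vectors are a description only. A value of 0 in these tables need not mean that a gene was silent, since Apoe, among the most abundant transcripts of glia, is listed at 0 in some groups.

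Slc22 and Slco carriers move drugs, steroid conjugates, thyroid hormones, prostaglandins, carnitine and other small ions into cells, whereas most ABC transporters use ATP to push lipids, drugs and conjugates out. In the central nervous system they are best known from the endothelium of the blood-brain barrier, where P-glycoprotein, encoded in mice by Abcb1a and Abcb1b, and the breast cancer resistance protein Abcg2 return drugs to the blood. Abca1 and Abcg1 load cholesterol onto lipoprotein particles in glia and macrophages, and several ABC proteins work inside the cell, in mitochondria or lysosomes.

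Among members of at least 1 FPKM in a group, Abca1, Slco2b1, Abcc3, Abcb1b and Slc22a18 shared a pattern. Of these, Abcc3, Abcb1b and Slc22a18 reached 1 FPKM only in HDAC4 groups, and so were admitted by the groups in which they were high. After saline, Abca1, Abcc3, Abcb1b and Slc22a18 were higher than with LacZ by 0.5 or more on the log2 scale with both HDAC4 vectors. So was Slco2b1, but its HDAC4 wt value comes from another stretch of the gene than the LacZ value, so that only its HDAC4 3SA ratio compares the same stretch. In HDAC4 3SA mice all 5 genes were higher by as much after CFA than after saline. With Slco1a5, which stayed below 1 FPKM, the 5 genes made 6 of the 49 members, or 12.2%, beside 6.06% of all genes. Slco1a5 reached 0.5 FPKM only in the HDAC4 wt saline group, where it was high, and its row covers 10.9% of the exon bases. The 12.2% counts Slco2b1 and Slco1a5, and the share is smaller without them. Because of this pattern, the stretch around the gene start is shown for 4 of the 5 genes. It runs from 250 bases before the start to 50 after it. These 4 have an entry in the RefSeq promoter table (GRCm38.p6), and Abcc3 had none. The stretches are chr4:53159846-53160145 on the minus strand for Abca1, chr5:8797897-8798196 on the plus strand for Abcb1b, chr7:143473539-143473838 on the plus strand for Slc22a18 and chr7:99711291-99711590 on the minus strand for Slco2b1, for which the most upstream of its 3 starts is given. The other 2 stretches of Slco2b1 hold none of the motifs searched. The Slco2b1 row of the LacZ and HDAC4 3SA tables ends at position 99707307, short of the start shown at 99711340 and close to another start at 99706842. Capitals mark matches, on either strand, to 1 of the 7 motifs searched.
Abca1: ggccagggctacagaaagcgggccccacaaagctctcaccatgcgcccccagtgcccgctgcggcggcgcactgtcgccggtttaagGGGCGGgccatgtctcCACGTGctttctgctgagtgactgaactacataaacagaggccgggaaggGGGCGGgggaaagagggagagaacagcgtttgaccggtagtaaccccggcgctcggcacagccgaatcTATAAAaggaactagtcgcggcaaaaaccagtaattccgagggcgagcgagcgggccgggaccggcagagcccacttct
Abcb1b: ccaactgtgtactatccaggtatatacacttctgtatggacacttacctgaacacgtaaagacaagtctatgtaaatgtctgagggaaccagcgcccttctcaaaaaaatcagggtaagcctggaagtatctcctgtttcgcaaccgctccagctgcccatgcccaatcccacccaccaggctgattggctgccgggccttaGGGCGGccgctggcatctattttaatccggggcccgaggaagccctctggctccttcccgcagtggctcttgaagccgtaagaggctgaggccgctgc
Slc22a18: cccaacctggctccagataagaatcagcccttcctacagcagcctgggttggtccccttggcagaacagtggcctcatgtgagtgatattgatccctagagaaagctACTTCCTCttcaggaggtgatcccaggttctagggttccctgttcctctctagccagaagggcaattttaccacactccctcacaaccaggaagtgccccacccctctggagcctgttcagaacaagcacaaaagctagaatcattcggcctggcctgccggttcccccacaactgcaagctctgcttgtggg
Slco2b1: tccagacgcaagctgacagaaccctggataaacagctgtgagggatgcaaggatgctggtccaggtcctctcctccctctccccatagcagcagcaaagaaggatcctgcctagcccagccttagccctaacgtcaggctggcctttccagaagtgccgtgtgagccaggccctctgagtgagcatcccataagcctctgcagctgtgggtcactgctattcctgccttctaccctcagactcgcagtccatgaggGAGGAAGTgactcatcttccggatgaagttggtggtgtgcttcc
In Abca1 the capitals are 2 GC boxes (GGGCGG) that begin 163 and 97 bases before the gene start, an E-box (CACGTG) that begins 147 bases before it and a TATA box (TATAAA) that begins 29 bases before it. The capitals in Abcb1b are 1 GC box, which begins 48 bases before the start. Slc22a18 and Slco2b1 both hold the PU.1 motif (GAGGAAGT), named for a transcription factor of macrophages and microglia, which in Slc22a18 lies on the opposite strand 143 bases before the start and in Slco2b1 lies 6 bases after the start.

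A promoter was found for 37 of the 49 members, 45 promoters in all, and the same motifs were counted in all 32851 promoters of the table. The PU.1 motif was in 13.33% of the members' promoters, which belong to Abcc10, Abcg2, Abcg3, Slc22a15, Slc22a18 and Slco2b1, and in 3.202% of all promoters. An E-box was in 13.33% of the members' and 7.15% of all promoters, a GC box in 51.11% and 35.66%, and a TATA box in 17.78% and 13.62%. The cAMP response element (TGACGTCA) was found among the members in the promoter of Abcg2 alone, and the motif of MEF2 (CTA and TAG with 4 bases of any kind between them), a partner of HDAC4, in that of Abca8a alone, which is 2.222% of the members' promoters each beside 1.79% and 3.686% of all. No member's promoter held the direct repeat of the sterol sensors LXR (AGGTCA and AGGTCA with 4 bases of any kind between them), and 0.01522% of all promoters did. These are matches of letters only, and binding was not measured.

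The members spanned a wide range of levels. Slc22a17, which encodes a receptor for the iron-binding protein lipocalin-2, stood at 241 FPKM after saline and 267 after CFA in LacZ mice, 227 and 214 in HDAC4 wt mice, and 246 and 233 in HDAC4 3SA mice. It lay far above the other Slc22a genes in every group, and its highest value was 1.25 times its lowest. Slc22a23, an orphan carrier, was at 15.7 and 15.6 FPKM with LacZ, 14.1 and 15.8 with HDAC4 wt, and 14.3 and 15.0 with HDAC4 3SA. Slc22a4, which takes up the antioxidant ergothioneine, was at 8.84 and 9.09 FPKM with LacZ, 11.8 and 13.0 with HDAC4 wt, and 11.0 and 13.3 with HDAC4 3SA. Slc22a4 was thus higher in each of the 4 HDAC4 groups than in either LacZ group. The carnitine carrier Slc22a5 kept to a narrow range, at 4.06 to 4.32 FPKM. Slc22a21, also a carnitine carrier, was at 0.669 and 0.621 FPKM with LacZ and at 0.739 to 0.869 FPKM with the HDAC4 vectors.

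Among Slco genes whose row covers most of the gene, Slco1a4, Slco3a1 and Slco1c1 had the highest mean levels. Slco1a4, which carries steroid conjugates and bile acids at the blood-brain barrier, was at 19.6 and 20.3 FPKM after saline and CFA in LacZ mice, 22.8 and 25.7 in HDAC4 wt mice, and 21.9 and 26.1 in HDAC4 3SA mice. Slco1c1, which carries the thyroid hormone thyroxine, was at 15.6 and 15.0, then 16.2 and 18.6, and then 16.6 and 19.8 FPKM in the same order. In Slco1a4 and Slco1c1 the 2 CFA groups with HDAC4 held the highest levels. Slco3a1, a carrier of prostaglandins among other anions, was at 24.2 and 23.5 FPKM with LacZ, 17.3 and 18.3 with HDAC4 wt, and 18.2 and 16.8 with HDAC4 3SA, so that its LacZ values lay above all others. Slco4a1 lay at 1.14 and 1.19 FPKM with LacZ and at 0.751 to 0.766 FPKM with the HDAC4 vectors. The other close relative of Slco1a4 with a row, Slco1a5, was at 0.0306 and 0.0555 FPKM with LacZ, 0.638 and 0.315 with HDAC4 wt, and 0.240 and 0.437 with HDAC4 3SA, and its row covers only 10.9% of the exon bases of the gene.

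Abca2, a lipid transporter of endosomes and lysosomes that is prominent in oligodendrocytes, was the highest ABC gene, at 78.2 and 82.2 FPKM with LacZ, 69.2 and 80.0 with HDAC4 wt, and 73.8 and 77.8 with HDAC4 3SA. Next came Abcc5, which exports cyclic nucleotides, at 39.4 and 38.5 FPKM with LacZ, 38.8 and 35.5 with HDAC4 wt, and 36.8 and 39.1 with HDAC4 3SA. The highest value of these genes was 1.19 and 1.11 times the lowest. Abca3, known for filling the lamellar bodies of the lung with lipid, was at 19.5 and 19.9 FPKM with LacZ, 17.9 and 18.8 with HDAC4 wt, and 19.7 and 20.0 with HDAC4 3SA.

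Further ABC genes of mitochondria and lysosomes lay well below Abca2. The mitochondrial transporter Abcb8 was at 16.3 and 16.3 FPKM with LacZ, 14.4 and 15.2 with HDAC4 wt, and 14.5 and 14.5 with HDAC4 3SA. Abcb10, also of mitochondria, was at 12.6 and 12.7, 11.1 and 10.9, and 11.1 and 10.6 FPKM in the same order. The lysosomal peptide transporter Abcb9 was at 17.4 and 18.1 FPKM with LacZ, 12.3 and 12.4 with HDAC4 wt, and 14.5 and 12.9 with HDAC4 3SA. In all 3 genes the LacZ values were the highest after saline. Abca5, another lysosomal transporter, ranged from 10.9 to 14.3 FPKM.

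**Figure D1:**
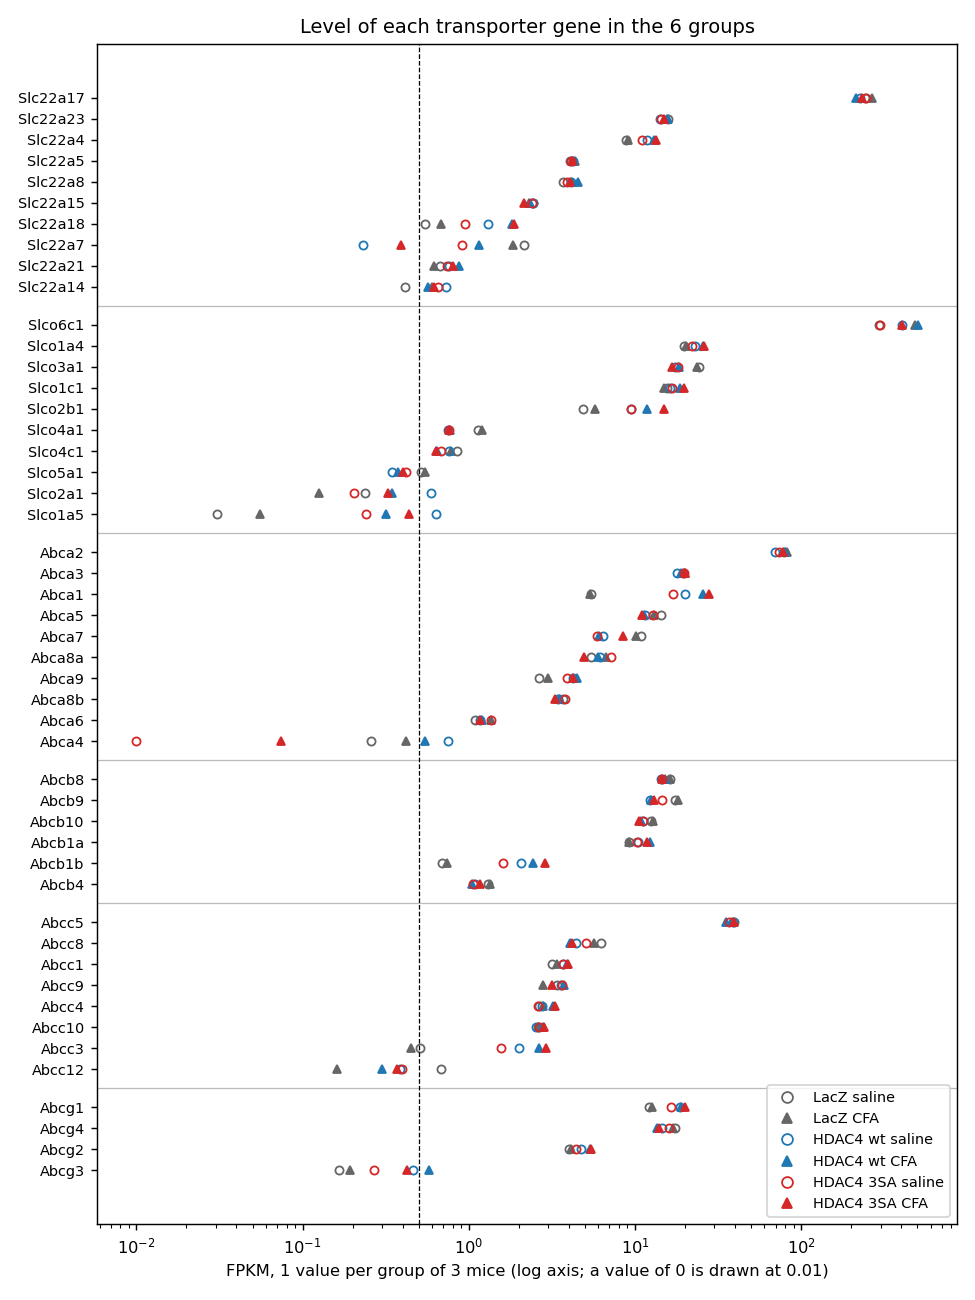
Levels of 48 of the 49 transporter genes, grouped by family, as FPKM on a log axis (1 value per group of 3 mice, no error available). Open circles are saline groups and triangles are CFA groups, in grey for LacZ, blue for HDAC4 wt and red for HDAC4 3SA, the dashed line marks 0.5 FPKM, and a value of 0 (Abca4) is drawn at 0.01. The 6 points of most genes lie together, while in Abca1, Abcb1b, Abcc3 and Slc22a18 both LacZ points lie to the left of all 4 HDAC4 points.

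Across the members as a whole, CFA went with small differences in every vector. The median log2 change of the 49 genes was 0.04 with LacZ, 0.06 with HDAC4 wt and 0.08 with HDAC4 3SA, beside 0.01, 0.00 and 0.02 over all 16918 genes. With LacZ 27 members were higher and 22 lower after CFA, with HDAC4 wt 32 and 17, and with HDAC4 3SA 30 and 19, while 53.1%, 51.3% and 53.4% of all genes were higher in these vectors.

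In LacZ mice 2 of the 49 members were higher after CFA by 0.5 or more, Slco6c1 and Abca4, beside 5.48% of all genes, and 2 were lower by as much, Abcc12 and Slco2a1, beside 3.03% of all genes. With HDAC4 wt, Slc22a7 was higher, beside 5.76% of all genes, and Slco2a1 and Slco1a5 were lower, beside 3.95%. Of these 6 genes, Slco6c1, Slco2a1 and Slco1a5 rest on rows that cover a small share of the exons. Slc22a7 rests on a row of the opposite strand, and Abca4 did not exceed 0.750 FPKM in any group. The LacZ values of Abcc12 come from another place in the gene than those of the other vectors, and its share of exons there was not computed. Abcc12 reached 0.5 FPKM only in the LacZ saline group, and Slco2a1 and Slco1a5 only in the HDAC4 wt saline group, so that the lower CFA values in those vectors follow in part from the minimum level. The shares of members past the limit in these vectors were between 2.04% and 4.08% in each direction.

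With HDAC4 3SA, 9 of the 49 members, or 18.4%, were higher after CFA by 0.5 or more, beside 10.2% of all genes. They were Abca1, Slco2b1, Abcc3, Abcb1b, Slc22a18, Abca7, Abcg3, Abca4 and Slco1a5. Abca7 was read from the opposite strand and changed by 0.02 on its own, and the row of Slco1a5 holds 10.9% of the exon bases. Abca4 is listed at 0 in the saline group and at 0.0742 FPKM after CFA, so no ratio can be read from it, and Abcg3 went from 0.270 to 0.425 FPKM. Lower by as much were Abca8a and Slc22a7, beside 3.82% of all genes, and Slc22a7, also read from the opposite strand, was at 0.18 on its own. With 1 FPKM added in place of 0.1, 5 members stayed higher by 0.5 or more, beside 6.01% of all genes, and none was lower by as much. Of the 9 genes, 8 (all but Abca4) were higher by 0.5 or more with HDAC4 3SA and below that limit with LacZ, or 16.3% of the members beside 7.94% of all genes.

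**Figure D2:**
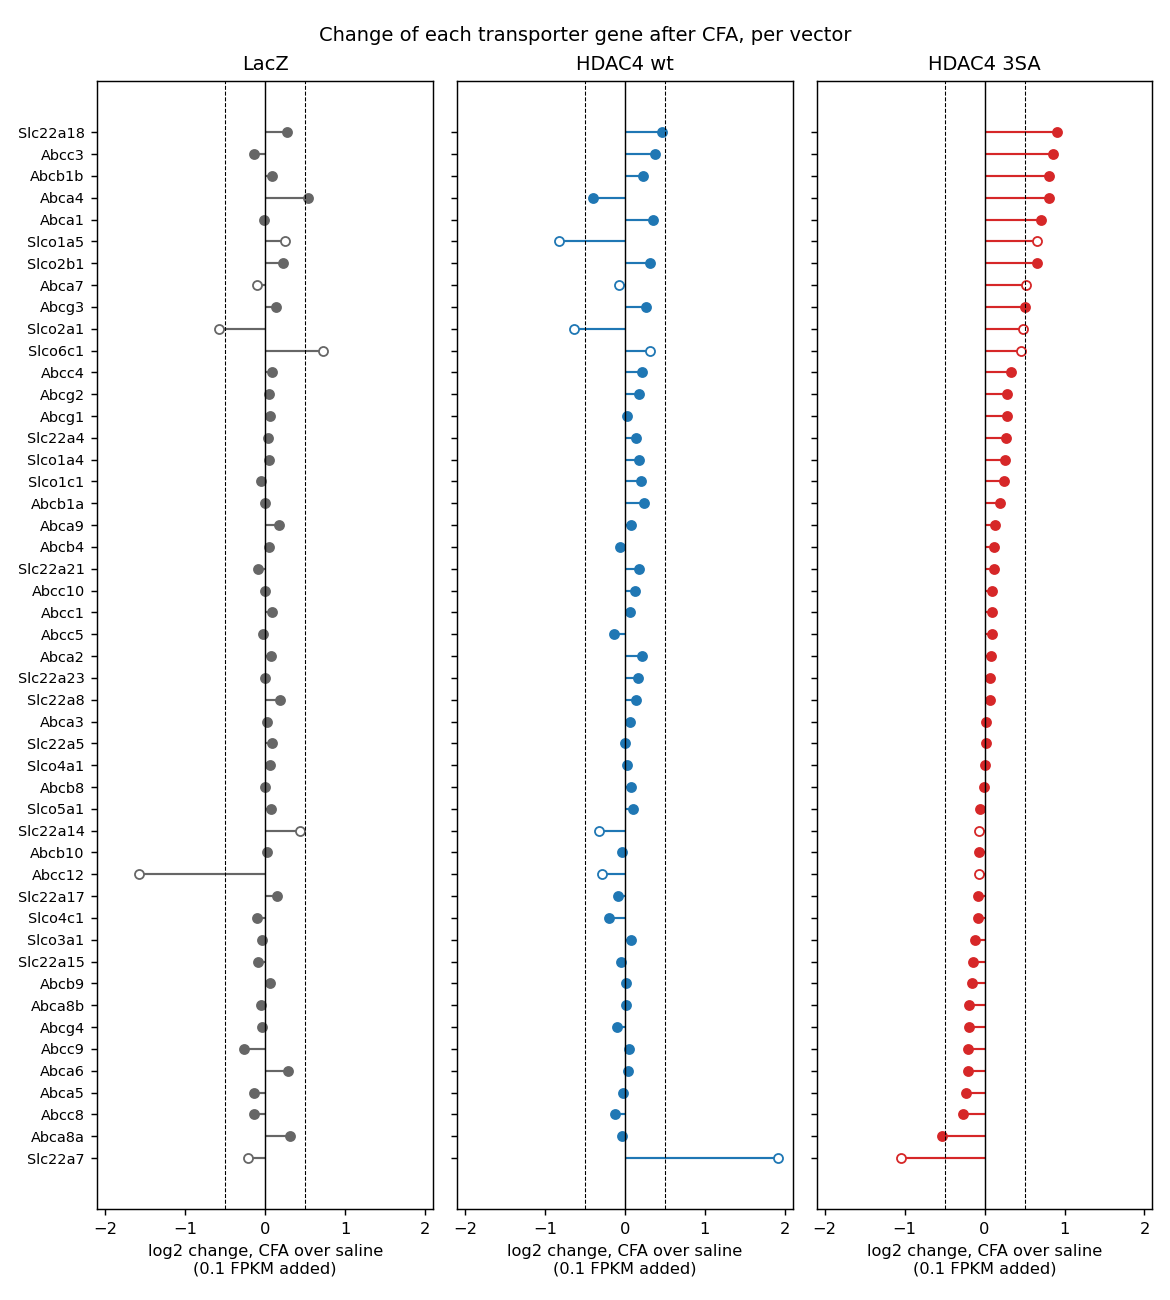
Log2 change after CFA of 48 of the 49 transporter genes in LacZ, HDAC4 wt and HDAC4 3SA mice (CFA over saline, 0.1 FPKM added, 1 value per group), ordered by the value with HDAC4 3SA. Dashed lines mark 0.5 in either direction. Open points are rows that lie on the opposite strand of the gene, or cover under 25% of its exon bases at their place with HDAC4 3SA. Slc22a18, Abcc3, Abcb1b and Abca1 lie at 0.90, 0.86, 0.81 and 0.71 in the right panel and at 0.27, -0.14, 0.09 and -0.01 in the left one.

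Abca1, which exports cholesterol to lipid-poor apolipoproteins, was at 5.43 FPKM after saline and 5.39 after CFA in LacZ mice, 20.0 and 25.6 in HDAC4 wt mice, and 17.0 and 27.8 in HDAC4 3SA mice. All 4 HDAC4 groups lay above both LacZ groups, and its saline level was 3.69 and 3.13 times that of LacZ with HDAC4 wt and HDAC4 3SA. The log2 change after CFA was -0.01 with LacZ, 0.35 with HDAC4 wt and 0.71 with HDAC4 3SA.

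Abcc3, which exports glucuronide conjugates, was at 0.505 and 0.448 FPKM with LacZ, 2.01 and 2.63 with HDAC4 wt, and 1.56 and 2.91 with HDAC4 3SA. It was low in both LacZ groups, and its saline level was 3.97 times that of LacZ with HDAC4 wt and 3.09 times with HDAC4 3SA. Its log2 change after CFA was -0.14, 0.38 and 0.86 in the order LacZ, HDAC4 wt and HDAC4 3SA.

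Slco2b1, a carrier of steroid sulphates, was at 4.87 and 5.72 FPKM with LacZ, 9.50 and 11.8 with HDAC4 wt, and 9.43 and 14.9 with HDAC4 3SA. Both HDAC4 3SA groups lay above both LacZ groups, and the log2 changes after CFA were 0.23, 0.31 and 0.66. The row lies at chr7:99667200-99707307 in the LacZ and HDAC4 3SA tables and at chr7:99657596-99666941 in the HDAC4 wt table, both within or at the edge of the annotated gene, so that the HDAC4 wt level was taken over another stretch of it and cannot be set against that of the other vectors. The stretch of the LacZ and HDAC4 3SA tables holds 45.0% of the exon bases.

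Abcb1b and Abcb1a encode the P-glycoproteins of the mouse, and they differed in level and in pattern. Abcb1a was at 9.19 FPKM after saline and after CFA with LacZ, 10.4 and 12.3 with HDAC4 wt, and 10.3 and 11.8 with HDAC4 3SA, with log2 changes of 0.00, 0.24 and 0.19. Abcb1b was at 0.689 and 0.738 FPKM with LacZ, 2.06 and 2.43 with HDAC4 wt, and 1.60 and 2.87 with HDAC4 3SA, with log2 changes of 0.09, 0.23 and 0.81. The saline level of Abcb1b with HDAC4 wt and HDAC4 3SA was 3.00 and 2.32 times that with LacZ, and that of Abcb1a was 1.13 and 1.12 times. Both genes lie on chromosome 5 and are close in sequence, and how reads that fit both were shared between them was not given in the sources used here.

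Slc22a18, an imprinted gene for an orphan carrier, was at 0.546 and 0.680 FPKM with LacZ, 1.30 and 1.82 with HDAC4 wt, and 0.947 and 1.86 with HDAC4 3SA. It was higher after CFA in each vector, with log2 changes of 0.27, 0.46 and 0.90, and the 4 HDAC4 groups lay above both LacZ groups.

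**Figure D3:**
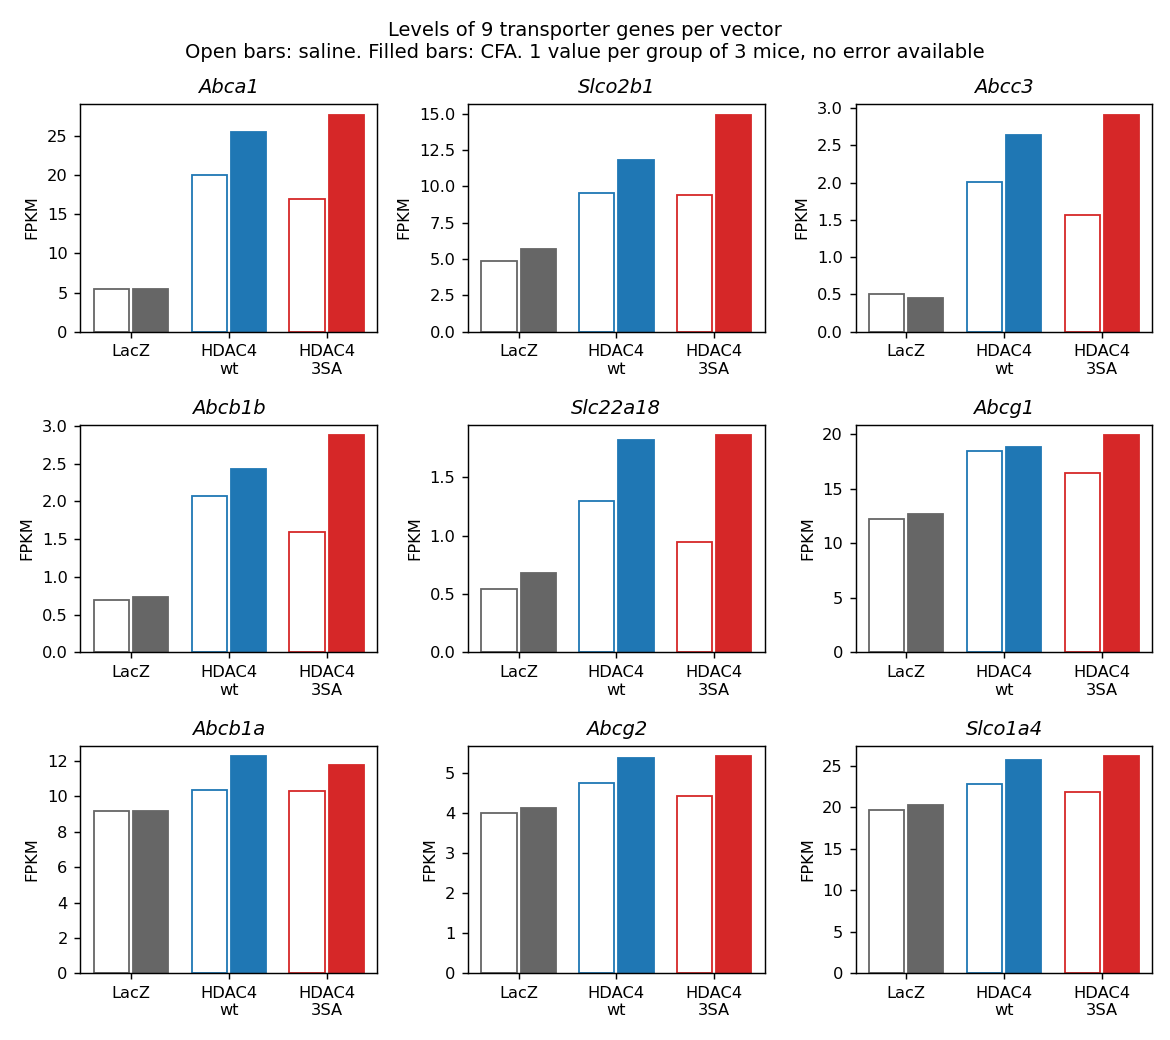
FPKM of 9 transporter genes (1 value per group of 3 mice, no error available), with a panel and a linear scale from 0 for each. Open bars are saline and filled bars CFA, in grey for LacZ, blue for HDAC4 wt and red for HDAC4 3SA. In Abca1 the HDAC4 bars stand at 17.0 to 27.8 FPKM and the LacZ bars at 5.39 and 5.43 FPKM, while the bars of Abcb1a lie between 9.19 and 12.3 FPKM.

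Microglia and macrophage markers, taken as a list, were also higher with the HDAC4 vectors, and higher again after CFA with HDAC4 3SA. The 10 markers of that list, all of which reached 0.5 FPKM, summed to 112 FPKM after saline and 132 after CFA with LacZ, 631 and 814 with HDAC4 wt, and 467 and 860 with HDAC4 3SA. C1qa, a complement gene of microglia, was at 37.5 and 49.9 FPKM with LacZ, 360 and 486 with HDAC4 wt, and 254 and 500 with HDAC4 3SA. As the highest of the list in every group, C1qa weighs most in these sums. The median log2 change of the list after CFA was 0.15 with LacZ, 0.25 with HDAC4 wt and 0.62 with HDAC4 3SA, with 6 of the 10 markers past 0.5 in HDAC4 3SA mice and 0 in the others. The median log2 ratio of the list to LacZ after saline was 1.61 with HDAC4 wt and 1.35 with HDAC4 3SA, with 8 and 7 of the 10 markers at 0.5 or more. P2ry12, Mrc1 and Cd163, named after their values were seen, were at 0.29, 0.43 and 0.02 with HDAC4 3SA. Their changes after CFA with HDAC4 3SA were 0.08, 0.05 and -0.12. The part of these cells in the values of Abca1, Slco2b1, Abcc3, Abcb1b and Slc22a18 was not tested, and in whole tissue more cells of a type cannot be told apart from more RNA per cell.

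Counted over all members, 12 of 49 were at a log2 ratio to LacZ of 0.5 or more with HDAC4 wt after saline, beside 17.4% of all genes, and 4 at -0.5 or less, beside 6.32%. Of these 12, Slco1a5, Slco2a1, Abca4 and Abcg3 reached 0.5 FPKM only in HDAC4 wt groups and so were admitted by the groups in which they were high. The corresponding counts for HDAC4 3SA were 8, beside 14.2%, and 5, beside 4.86%. The members at -0.5 or less after saline were Slco4a1, Abca7, Slc22a7 and Abcc12 with each HDAC4 vector, and Abca4 with HDAC4 3SA. Abca7 and Slc22a7 were read from the opposite strand, and Abca4 is listed at 0 after saline with HDAC4 3SA. Abcc12 reached 0.5 FPKM only in the LacZ saline group and was read from another place in the gene there. Only Slco4a1 carries none of these limits. After CFA, 12 members lay at 0.5 or more with HDAC4 wt, beside 17.3% of all genes, and 11 with HDAC4 3SA, beside 18.6%, while 4 and 3 lay at -0.5 or less, beside 6.31% and 7.68%. These ratios share the LacZ group. Both HDAC4 saline groups were at 0.5 or more over LacZ in 8 members, beside 12.1% of all genes, namely Abca1, Abcc3, Abcb1b, Slc22a18, Abca9, Slc22a14, Slco1a5 and Slco2b1, the last over another stretch of the gene with HDAC4 wt. Abca9 was at 2.63 and 2.99 FPKM with LacZ and at 3.88 to 4.49 FPKM with HDAC4. Of the 49 members 6, or 12.2%, met this rule and were also higher after CFA by 0.5 or more with HDAC4 3SA, beside 6.06% of all genes, and these were Abca1, Abcc3, Abcb1b, Slc22a18, Slco2b1 and Slco1a5. This share counts Slco2b1, read over different stretches, and Slco1a5, admitted only by the HDAC4 wt saline group, and is smaller without them.

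Abcg1 and Abcg4, which pass cholesterol to high-density lipoproteins, differed in direction. Abcg1 was at 12.2 and 12.7 FPKM with LacZ, 18.5 and 18.9 with HDAC4 wt, and 16.4 and 19.9 with HDAC4 3SA, so that it shared the order of Abca1 after saline with smaller ratios to LacZ of 1.52 and 1.35. Abcg4 was at 17.4 and 16.9 FPKM with LacZ, 14.4 and 13.5 with HDAC4 wt, and 15.9 and 13.9 with HDAC4 3SA, lower after CFA in each vector.

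Of 16 genes listed for cholesterol efflux and lipoprotein handling, 15 had a row and reached 0.5 FPKM. Without Apoe, which is listed at 0 in some groups, the median log2 change after CFA of the other 14 was 0.05 with LacZ, 0.16 with HDAC4 wt and 0.19 with HDAC4 3SA, and 3 were higher by 0.5 or more with HDAC4 3SA and 0 with the other vectors. Npc2, a lysosomal sterol carrier, was at 33.7 and 34.7 FPKM with LacZ, 69.0 and 84.5 with HDAC4 wt, and 55.6 and 92.3 with HDAC4 3SA. The other 2 of the 3, named here after their values were seen, were Lpl (lipoprotein lipase) and Mylip, a ligase that degrades the LDL receptor, at log2 changes of 0.82 and 0.55. Apoe, the apolipoprotein of glia, was at 1263 and 1372 FPKM with LacZ and at 4195 and 3213 FPKM after saline with HDAC4 wt and HDAC4 3SA, but is listed at 0 in both of their CFA groups, so no change could be read for it. Among the nuclear receptors and sensors that control transporter genes, 13 of 16 had a row, 12 reached 0.5 FPKM, and the median changes were 0.05, 0.01 and 0.05. Nr1h2, which encodes a sterol sensor of the LXR kind, stood at 31.3 to 34.7 FPKM in all groups. By 0.5 or more, 1 was higher with LacZ, 2 with HDAC4 wt and 1 with HDAC4 3SA. Of all genes 5.48%, 5.76% and 10.2% were. With HDAC4 3SA 1 was lower by as much, beside 3.82%. The gene higher with HDAC4 3SA, named after its values were seen, was Nfe2l2. It was at 11.2 and 11.5 FPKM with LacZ, 25.8 and 31.0 with HDAC4 wt, and 21.7 and 31.9 with HDAC4 3SA. Ppard, the highest of the list by mean level, was at 86.7 and 71.1, 47.9 and 68.7, and 38.2 and 50.2 FPKM.

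Abcg2, Abcc4, Slco1a4, Slco1c1 and Slc22a8, which are known from the blood-brain barrier, had changes after CFA below 0.5 in every vector. Of the P-glycoprotein genes, Abcb1a stayed below 0.5 too, while Abcb1b was at 0.81 with HDAC4 3SA. Abcg2 was at 3.99 and 4.13 FPKM with LacZ, 4.74 and 5.36 with HDAC4 wt, and 4.42 and 5.41 with HDAC4 3SA, at log2 changes of 0.05, 0.17 and 0.29. Abcc4, which exports cyclic nucleotides and anionic drugs, was highest in the CFA groups of HDAC4 wt and HDAC4 3SA within a range of 2.60 to 3.31 FPKM. The corresponding changes of Slco1a4 were 0.05, 0.17 and 0.25 and those of Slco1c1 were -0.06, 0.20 and 0.25. The organic anion transporter Slc22a8, found at the barrier and in the choroid plexus, was at 3.67 and 4.17 FPKM with LacZ, 4.10 and 4.51 with HDAC4 wt, and 3.88 and 4.07 with HDAC4 3SA. Its changes were 0.18, 0.13 and 0.07, so that it did not follow the order of the others.

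Other genes of the vessel wall were listed beside them. In a list of 12 other barrier transporters and junction genes, of which all reached 0.5 FPKM, the median change was 0.08 with LacZ, 0.19 with HDAC4 wt and 0.22 with HDAC4 3SA, and 1 gene was past 0.5 in each vector. That gene, named after its values were seen, was the amino acid carrier Slc38a5, at log2 changes of 1.07, 0.75 and 0.58. The 8 endothelial markers with a row, of 10 listed, had medians of -0.03, 0.17 and 0.13 and summed to 62.1 and 62.0 FPKM with LacZ, 78.4 and 91.4 with HDAC4 wt, and 77.9 and 94.4 with HDAC4 3SA. The 7 pericyte and smooth muscle markers with a row, of 8 listed, had medians of 0.06, 0.26 and 0.38. With HDAC4 3SA, 1 endothelial marker, Ly6c1, and 2 smooth muscle markers, Acta2 and Myh11, all named after their values were seen, were higher after CFA by 0.50, 0.75 and 0.57. Summed endothelial markers were thus higher in the groups in which Abcg2, Slco1a4 and Slco1c1 were higher, and their part in those levels was not tested. The markers did not move alike. Ly6c1 was at 15.1 FPKM after saline with LacZ and 31.9 after CFA with HDAC4 3SA, while Kdr, also named after its values were seen, was at 4.02 and 3.27. After CFA with HDAC4 3SA, 7 of the 8 markers were higher by any size.

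Abca8a and Abca8b lie next to each other on chromosome 11, with Abca9 and Abca6. Abca8a was at 5.42 and 6.71 FPKM with LacZ, 6.17 and 6.01 with HDAC4 wt, and 7.19 and 4.94 with HDAC4 3SA, which gave log2 changes of 0.30, -0.04 and -0.53. Abca8b was at 3.69 and 3.55, 3.45 and 3.47, and 3.78 and 3.29 FPKM in the same groups, at -0.05, 0.01 and -0.19. Abca6, which did not exceed 1.36 FPKM, had changes of 0.28, 0.04 and -0.21 in the order of Abca8a, whereas Abca9 had 0.18, 0.08 and 0.13. Markers of Schwann cells, the myelinating cells of the nerve roots, had medians of 0.59, -0.04 and -0.74, with 5 of 8 higher by 0.5 or more with LacZ and 6 of 8 lower by as much with HDAC4 3SA. These 8 markers summed to 1231 and 1771 FPKM with LacZ, 1228 and 1246 with HDAC4 wt, and 1605 and 1086 with HDAC4 3SA. Whether nerve root tissue had a part in the values of Abca8a was not tested.

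Some members were lower after CFA in each vector. Abcc8, the sulphonylurea receptor subunit of ATP-sensitive potassium channels, was at 6.27 and 5.68 FPKM with LacZ, 4.41 and 4.04 with HDAC4 wt, and 5.06 and 4.19 with HDAC4 3SA. Abcc9, its counterpart in muscle and pericytes, ranged from 2.80 to 3.71 FPKM. In all, 7 members were lower after CFA in each of the 3 vectors by any size, among them Abca5, Abcc8, Abcc12, Abcg4, Slc22a15 and Slco4c1, which is 14.3% beside 18.6% of all genes. In the opposite direction 17 members, or 34.7%, were higher in each vector, beside 24.1% of all genes. The 8 neuron markers had median changes of -0.04, -0.15 and -0.33 after CFA, and 3 and 2 of them were at a log2 ratio to LacZ of -0.5 or less after saline with HDAC4 wt and HDAC4 3SA. Abcc1, which exports glutathione conjugates, was at 3.16 and 3.37 FPKM with LacZ, 3.70 and 3.87 with HDAC4 wt, and 3.67 and 3.93 with HDAC4 3SA, and Abcc10 ranged from 2.54 to 2.83 FPKM.

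By family, the median log2 change after CFA with HDAC4 3SA was 0.28 in the 4 Abcg, 0.25 in the 10 Slco, 0.09 in the 8 Abcc, 0.05 in the 10 Abca, 0.04 in the 10 Slc22a and 0.00 in the 7 Abcb genes of at least 0.5 FPKM. With LacZ the same medians lay between -0.09 and 0.06, and with HDAC4 wt between 0.02 and 0.14. The genes past 0.5 in HDAC4 3SA mice were spread over all 6 families.

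Of 13 anion and monocarboxylate carriers outside these families, all of which reached 0.5 FPKM, 11 were higher after CFA by any size with LacZ, 11 with HDAC4 wt and 10 with HDAC4 3SA, at medians of 0.08, 0.14 and 0.13. By 0.5 or more, 3 were higher with LacZ, 2 with HDAC4 wt and 1 with HDAC4 3SA, beside 5.48%, 5.76% and 10.2% of all genes. Those 3 genes, named after their values were seen, were Slc47a1, Slc26a7 and Slc13a4. Slc47a1, which extrudes organic cations, was at 0.04 and 1.26 FPKM with LacZ, 0.04 and 1.30 with HDAC4 wt, and 0.04 and 0.12 with HDAC4 3SA, so that it was high in both CFA groups other than that of HDAC4 3SA. Slc26a7 followed the same order, with changes of 2.14, 2.27 and 0.28, and those of the sulphate carrier Slc13a4 were 0.90, 0.27 and -0.09. No member was higher after CFA by 0.5 or more in both LacZ and HDAC4 wt mice. Leptomeningeal and perivascular fibroblast markers had median changes of 0.44, 0.23 and 0.13, and their 10 genes summed to 410 and 728 FPKM with LacZ, 569 and 733 with HDAC4 wt, and 506 and 577 with HDAC4 3SA. Among 17 drug and steroid conjugation enzymes, 14 had a row, the medians were 0.08, 0.07 and 0.06, and the only gene past 0.5 with HDAC4 3SA was Ephx1, an epoxide hydrolase named after its values were seen, at a change of 0.70.

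**Figure D4:**
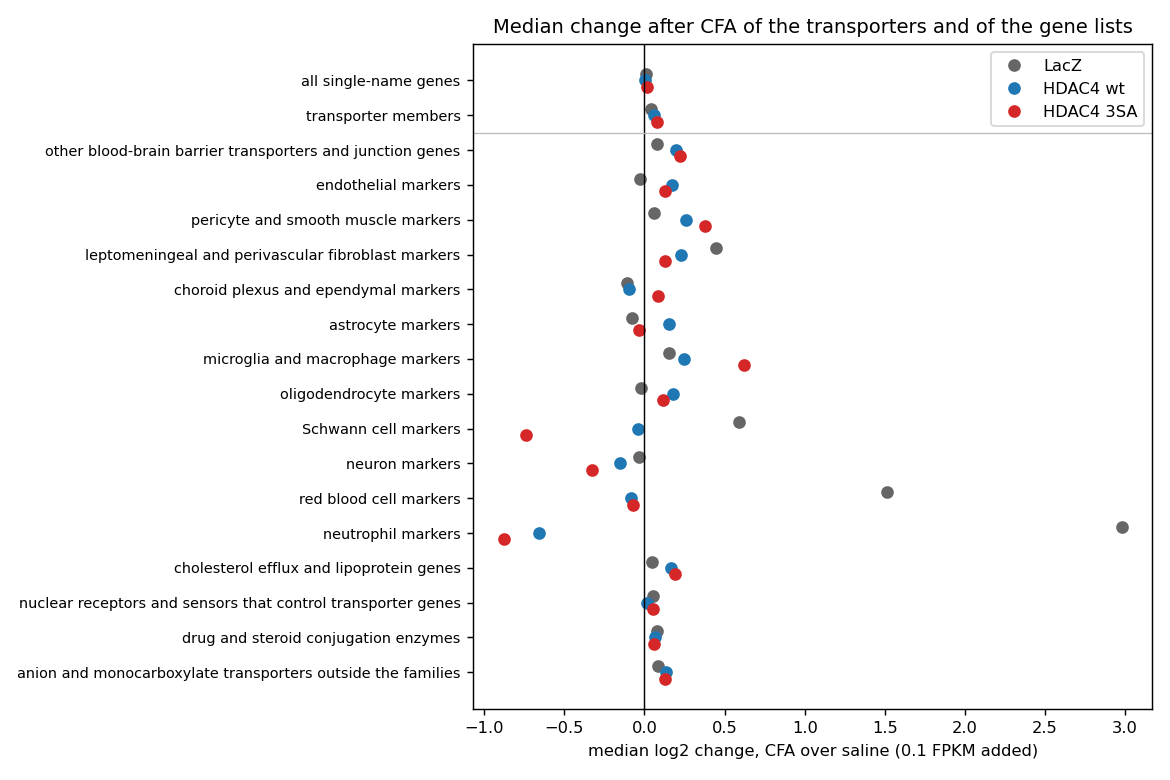
Median log2 change after CFA (0.1 FPKM added) of all 16918 genes, of the 49 transporter genes and of 16 gene lists, without genes listed at 0 in a group, with a point for each vector (grey LacZ, blue HDAC4 wt, red HDAC4 3SA). The transporter points lie at 0.04, 0.06 and 0.08, while microglia and macrophage markers lie at 0.15, 0.25 and 0.62 and neutrophil markers at 2.98, -0.66 and -0.88.

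The LacZ groups also differed from the others in blood cell markers. Neutrophil markers, of which 7 of 8 reached 0.5 FPKM, summed to 11.2 and 113 FPKM with LacZ, 41.7 and 28.9 with HDAC4 wt, and 62.3 and 38.9 with HDAC4 3SA, and the 4 red blood cell markers with a row, of 6 listed, had median changes of 1.51, -0.08 and -0.07. Markers of neurons, astrocytes and oligodendrocytes were found in every group, as the tissue label says, with median changes of -0.08, 0.15 and -0.03 for the 7 astrocyte markers and -0.02, 0.18 and 0.12 for 7 oligodendrocyte markers with no value of 0. The 7 choroid plexus and ependymal markers had medians of -0.11, -0.10 and 0.08. Of 8 kidney tubule markers 1 had a row, which stayed at or below 0.325 FPKM.

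Some rows do not represent the whole gene or its strand, and their values are given apart. The row of Slco6c1, a carrier known from testis, is 79 bases long at chr1:97059307-97059385 and holds 2.78% of the exon bases. It was at 294 and 483 FPKM with LacZ, 405 and 506 with HDAC4 wt, and 296 and 406 with HDAC4 3SA, the highest levels of any member, and cannot be read as the level of the whole transcript. The row of Slco2a1, the prostaglandin transporter, is 327 bases long with 2.41% of the exon bases. The row of Abcc12 holds 5.83% with HDAC4 wt and HDAC4 3SA, and lies at a different place with LacZ, where its share was not computed. Slc22a14 was read from a stretch within its introns and on the strand opposite to the gene. On the gene's own strand the row of this same stretch was at 0.391, 0.439 and 0.356 FPKM after saline with LacZ, HDAC4 wt and HDAC4 3SA. Read from that row, Slc22a14 would not count among the 8 members above LacZ. Neither row holds exon bases of the gene, so that neither gives its level.

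For Abca7, a phospholipid transporter, and Slc22a7, an organic anion carrier, the row with the highest mean level lies by the order of the identifiers on the strand opposite to the gene. That row of Abca7 was at 10.9 and 10.1 FPKM with LacZ, 6.46 and 6.11 with HDAC4 wt, and 5.91 and 8.50 with HDAC4 3SA. The row on the gene's own strand was at 6.91 and 6.97, 6.72 and 6.29, and 7.07 and 7.16 FPKM, with a change of 0.02 in HDAC4 3SA mice in place of 0.52. Slc22a7 was at 2.16 and 1.84 FPKM with LacZ, 0.232 and 1.16 with HDAC4 wt, and 0.911 and 0.388 with HDAC4 3SA on the opposite strand, at changes of -0.22, 1.92 and -1.05. On its own strand it ranged from 0.316 to 0.672 FPKM, at changes of 0.25, 0.25 and 0.18, so that none of the changes after CFA of Abca7 and Slc22a7 past 0.5 was seen on the strand of the gene.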

How the data were processed

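Poly-A RNA from dorsal spinal cord of 18 mice, 3 per group, was sequenced with strand-specific 50 bp single-end reads. The authors mapped the reads to GRCm38 with TopHat and Bowtie, merged transcripts with Cufflinks and Cuffmerge against Ensembl annotation, and estimated levels with Cuffdiff. They deposited 3 tables, 1 per vector, each with 34579 rows and a saline and a CFA column in FPKM, 1 value per group. The fold changes, test statistics, p and q values of the authors in the same tables were not used. The tables hold no read totals per library, so no counting interval was computed.

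Rows with a single gene name were matched by identifier, and the row with the highest mean over the 6 values was kept per name. Log2 changes were computed with 0.1 FPKM added, for genes of at least 0.5 FPKM in a group, with Python 3.11.15, pandas 2.3.3 and numpy 2.4.6, and the script was tested on simulated data. No test was run, since the tables hold no value per mouse. In 386 rows the places in the tables do not overlap, which touched 2 members (Abcc12 and Slco2b1). Identifiers run along each chromosome in 2 runs, and of genes with 1 row, 98.61% in the first-numbered run lie on the plus strand and 98.41% in the next on the minus strand, from which the strand of a row was read. Exon shares come from GENCODE M21, computed over the place of each row with HDAC4 3SA, and promoters from RefSeq.

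The values of 1 member are counted but not reported here. Members, the 17 gene lists and the motifs were chosen with earlier results of these data known. The genes chosen by rule were members of at least 1 FPKM in a group with a change of 0.5 or more in any vector, the 3 highest of each family, the pairs Abcb1a and Abcb1b, Abca8a and Abca8b and the Slco1a genes, and those beside the 0.5 FPKM limit, and from the lists at most the 3 highest. Slco1c1, Slc22a8 and others beyond this rule are given with ranges or values, or were named after their values were seen. Medians of gene lists leave out genes listed at 0 in a group. Alternatives were other added constants, minimum levels, a limit of 1, centring, summed rows, and overlapping places. Rows on the gene's own strand and loci with at least 25% of the exon bases were added after seeing the data.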

Additional observations from a re-analysis of the deposited data

How the results depend on the processing

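The median log2 change of the members differed by under 0.1 in each vector under every alternative run. The counts of members past 0.5 in either direction were 4 with LacZ, 3 with HDAC4 wt and 11 with HDAC4 3SA. With 1 FPKM added they were 2, 1 and 5, and with a limit of 1 they were 1, 1 and 1. A mean of at least 0.5 FPKM, a minimum of 1 FPKM in a group, or loci with at least 25% of the exon bases each left 1 with LacZ and 1 with HDAC4 wt, since each setting counts fewer genes, and left 8, 8 and 10 with HDAC4 3SA. The other alternatives moved a count by at most 1.5 times or left it as it was. Of 12 values past the limit among the genes chosen by rule, 7 stayed past it with 1 FPKM added and 9 on the gene's own strand, where the change of Slc22a7 with HDAC4 3SA was 0.18 in place of -1.05. No paired analysis was possible because the tables hold 1 value per group, and leaving out each mouse in turn was not run for the same reason. The values used here hold no spread between mice and no counts, so no difference is set against biological or counting error.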
